A study of Mus musculus with 5 samples.

Results

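Choroid plexus epithelial cells were described here in single-cell RNA libraries of mouse cortex, as 389 of 58411 barcodes kept in all. To be kept, a barcode needed 500 or more unique molecular identifiers (UMIs, each a counted RNA molecule), 200 or more detected genes, and no more than 20% of UMIs from mitochondrial genes. A kept barcode was taken as choroid plexus epithelium when Ttr made up at least 2% of its UMIs and at least 1 of Kl, Folr1, Clic6, Kcne2 and Otx2 was detected. It also had to hold no UMI of Cd3e, a T cell gene, and less than 0.3% of its UMIs in C1qa, C1qb and C1qc, which mark microglia and macrophages. The members were thus chosen by measured levels, so the levels of these genes, and any contrast of members with other barcodes, are given as a description without a test.

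The study followed cortex after traumatic brain injury (TBI), and its title concerns the m6A demethylase ALKBH5 and its target SOCS3 in microglia and macrophages. All groups were C57BL/6J mice: sham-operated mice without injury, and mice 1, 3, 7 and 14 days after TBI. Each group was 1 library of papain-dissociated cells run through the 10x Genomics droplet system with its 3′ v3 chemistry. The titles of injured samples state that tissue came from the site of injury, the sham title states no site, and no label tells how many mice were pooled. There was therefore no replicate and no test between groups, and every interval below is a 95% interval that covers counting error only.

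The choroid plexus is a sheet of cuboidal epithelium over leaky capillaries that hangs into the brain ventricles. Its cells secrete cerebrospinal fluid by moving sodium, chloride and bicarbonate across the sheet, and their tight junctions form the barrier between blood and that fluid. They release carriers and hormone-binding proteins such as transthyretin, and they are a known site of entry for leukocytes and of response to interferons. The tissue lies outside the cortex proper, in the ventricle wall beneath it.

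The libraries differed in depth in the order of time, from 11279455 UMIs in sham to 26705021, 41090570, 110205126 and 129161094 at days 1, 3, 7 and 14. The median kept barcode outside the members held 774 to 8737.5 UMIs. Day 7 stood apart, with 1781 barcodes over 20% mitochondrial UMIs against 0 to 61 in the other libraries. Between 27 and 59 barcode sequences were shared by each pair of libraries, and none of the shared ones was a member.

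Choroid plexus epithelial barcodes were almost absent from sham and from day 7 and were present at days 1, 3 and 14. Sham held 1 of 11525 kept barcodes, a share of 0.00868% (0.00022% to 0.0483%). Day 1 held 76 of 12705, or 0.598% (0.472% to 0.748%). Day 3 held 160 of 9877, or 1.62% (1.38% to 1.89%). The day 3 library had the highest share of the 5. Day 7 held 10 of 12358, or 0.0809% (0.0388% to 0.149%), and day 14 held 142 of 11946, or 1.19% (1.00% to 1.40%). The exact Clopper-Pearson intervals of days 1, 3 and 14 lay above those of sham and day 7 without overlap. With 1 library per group, the day after injury, the tissue taken at dissection and the handling of the library cannot be told apart as sources of these shares.

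**Figure D1:**
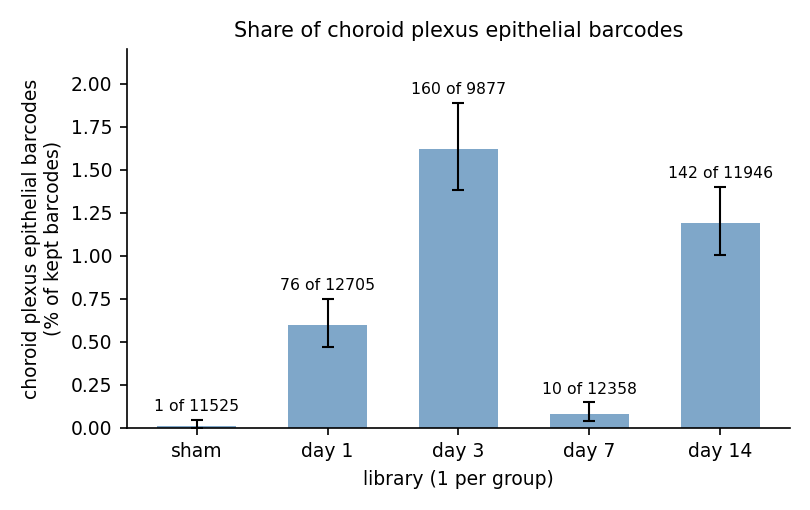
Share of kept barcodes that met the choroid plexus epithelial rule (vertical axis, percent) in the 5 libraries (horizontal axis), with exact 95% intervals as bars and the counts printed above. Sham (1 of 11525) and day 7 (10 of 12358) stand near 0, and day 3 is highest at 1.62%.

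The other gates were applied to the barcodes rich in Ttr. Ttr made up at least 2% of UMIs in 1, 100, 184, 14 and 165 kept barcodes from sham to day 14. Of these, 0, 14, 10, 3 and 2 had none of the other 5 rule genes. The C1q limit removed 0, 10, 14, 1 and 12, and Cd3e removed 9 at day 14 and none elsewhere. The mitochondrial limit alone removed 3, 5 and 3 further candidates at days 1, 3 and 7 and none in sham or at day 14. Near the Ttr threshold the barcodes were sparse: 1 member each at days 3, 7 and 14 lay between 2% and 3%, and 4, 4 and 2 barcodes at days 1, 3 and 7 lay just below it, between 1% and 2%, with a median Ttr share of 1.38%, 1.30% and 1.78%.

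Members varied in depth and in Ttr. The median member held 612, 1748.5, 1879, 6217 and 9576 UMIs from sham to day 14, so members at day 14 were the deepest. Transthyretin RNA made up a median of 35.6% of a member's UMIs at day 1 (range 3.07% to 55.5%), 36.3% at day 3 (2.14% to 59.3%) and 36.2% at day 14 (2.93% to 57.9%). The 10 members of day 7 were lower, with a median of 11.4% and a range of 2.86% to 23.8%. The single sham member had 9.31%. All 5 of the other rule genes were found together in 0, 10, 15, 1 and 80 members from sham to day 14. The median mitochondrial share of members was 4.74%, 2.69%, 2.41%, 6.86% and 1.20% from sham to day 14, against 0.740%, 1.17%, 1.59%, 5.35% and 0.973% over the other kept barcodes.

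The rule genes had the following levels, as CPM, the UMIs of a gene summed over members and scaled to a fixed total of member UMIs, at days 1, 3, 7 and 14. Ttr, the thyroid hormone and retinol carrier of cerebrospinal fluid, stood at 299052, 341854, 119230 and 359899 CPM. Kl, which encodes the anti-ageing membrane protein klotho, stood at 1376, 955, 354 and 797 CPM. In the other barcodes of days 1, 3 and 14 Kl was 0.788 to 2.04 CPM. Since Kl helped to choose the members, neither this contrast nor its order across days is read further. Folr1, the folate receptor that moves folate into the fluid, was 779, 850, 193 and 856 CPM. Clic6, an intracellular chloride channel protein, was 537, 765, 386 and 464 CPM. Kcne2, a potassium channel subunit of the apical membrane, was 186, 71.8, 80.5 and 232 CPM. Otx2, the homeobox factor that specifies this epithelium, was 170, 287, 290 and 256 CPM.

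Genes outside the rule bore out the label. Of 24 other choroid plexus markers, 24 were above the level of all other kept barcodes in each of the day 1, 3 and 14 libraries. Their mean log2 ratio of members over other barcodes, with 10 CPM added to both, ran from 1.89 to 7.09 with a median of 4.03. Of the 25 genes with the highest such ratio, 10 came from that list and 4 were rule genes (Ttr, Kl, Folr1 and Clic6). The rest included Ace, the angiotensin-converting enzyme, Cox8b, a subunit of cytochrome oxidase, Ppp1r1b, a phosphatase inhibitor, Wfdc2, a secreted protease inhibitor, and Pcp4l1, a small calmodulin-binding protein homologue. Because the rule selected these cells, this contrast is a description. Markers of other Ttr-rich tissues were at or near 0: over the 4 injured libraries hepatocyte markers summed to at most 8.72 CPM and retinal pigment epithelium markers to at most 16.5 CPM.

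**Figure D2:**
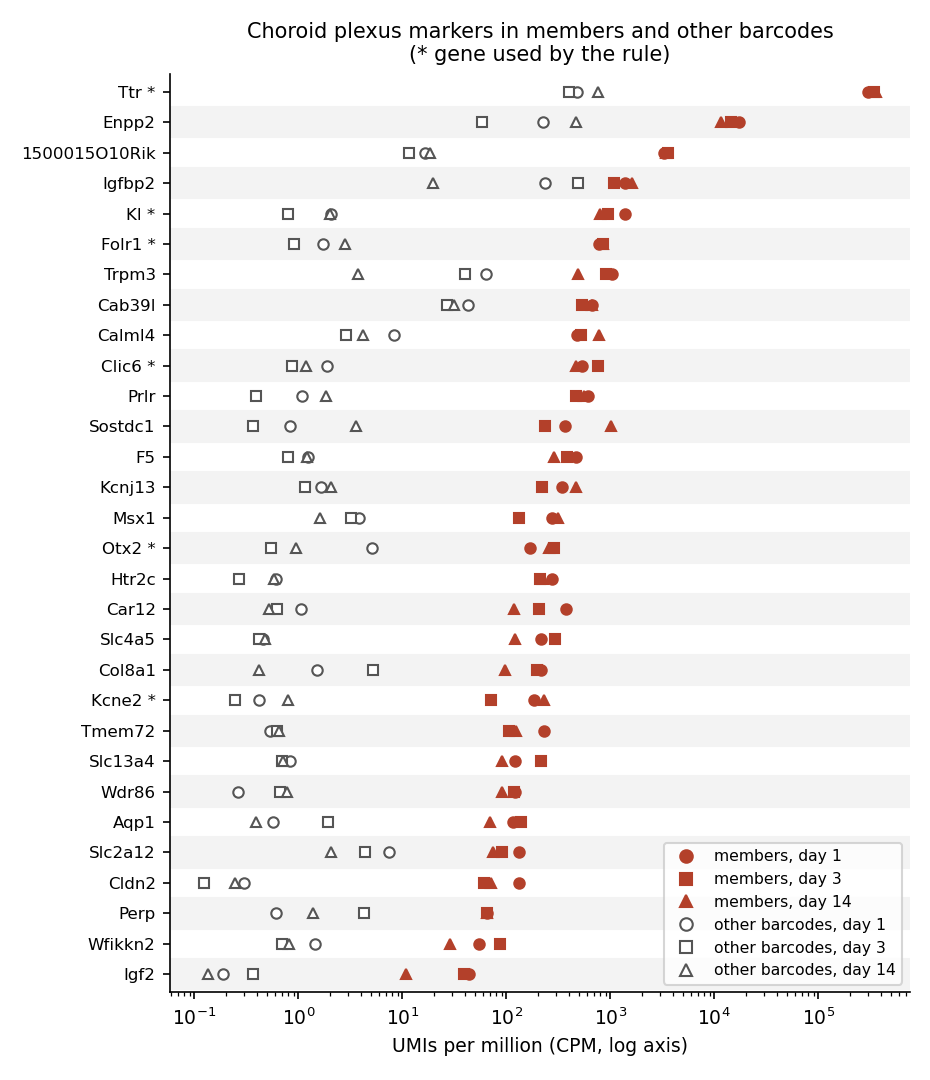
Levels of the 6 rule genes (starred) and 24 other choroid plexus markers in CPM on a log axis, in members (filled) and in all other kept barcodes (open) of days 1, 3 and 14. Filled symbols lie to the right of open ones for each gene, and Ttr is the farthest at 299052 to 359899 CPM.

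Enpp2, which encodes the secreted lysophospholipase autotaxin, was the most abundant marker after Ttr at 17081, 14596, 3992 and 11510 CPM at days 1, 3, 7 and 14 (chr15:54838901-54952892 on GRCm38). 1500015O10Rik, which encodes the secreted peptide augurin, was steadier at 3318, 3596, 966 and 3403 CPM. Both were lowest in the 10 members of day 7. Ins2, an insulin gene, was detected at 60.3, 32.6, 16.1 and 113 CPM, in 10, 12, 1 and 70 members, against 0.00954 to 0.142 CPM in other barcodes. The islet markers Gcg, Ins1 and Pyy had no UMI in members of those libraries.

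RNA of other cells was present in members at levels that differed between libraries. Summed over 8 astrocyte markers it was 3230, 1533, 5183 and 287 CPM at days 1, 3, 7 and 14, against 7945, 5366, 5661 and 491 CPM in other barcodes. All 8 astrocyte markers had a UMI in members of each of these libraries. Over 7 oligodendrocyte markers it was 565, 93.5, 1030 and 2704 CPM, with Mobp at 0 at day 3, and over 12 microglial markers 751, 568, 1722 and 699 CPM, with P2ry12 at 0 at days 1 and 7 and Aif1 at 0 at day 7. Astrocyte RNA in members was thus lowest at day 14 and oligodendrocyte RNA highest there. Members with 1% or more of their UMIs in markers of other cell types numbered 8, 4, 3 and 6 at days 1, 3, 7 and 14. With these left out, the oligodendrocyte markers Cldn11, Mag and Mobp were no longer higher at day 14 than at day 1, while Cnp stayed at least 2-fold higher. Among markers of blood and vessel cells, the 7 macrophage markers summed to at most 193 CPM, with Mrc1 at 0 at days 1, 3 and 7 and Cd163 at 0 in all 4. The 7 endothelial markers summed to 219, 54.4, 0 and 5.37 CPM, against 118, 72.0, 597 and 96.2 CPM in other barcodes. The 5 neutrophil markers summed to 32.9, 139, 0 and 7.38 CPM and the 5 erythroid markers to 5.48, 4.35, 32.2 and 85.2 CPM. The 8 mural and fibroblast markers summed to 87.7, 76.1, 96.6 and 46.3 CPM, against 60.8, 348, 152 and 48.0 CPM in other barcodes. The 4 neuroblast markers summed to 137, 76.1, 515 and 15.4 CPM, against 1074, 671, 95.2 and 192 CPM in other barcodes. The 5 T cell markers summed to 0, 4.35, 32.2 and 10.7 CPM, with Cd3e at 0 by the rule. The 8 ependymal markers summed to 318, 287, 386 and 521 CPM, above the 113, 64.0, 40.3 and 63.4 CPM of other barcodes. Of the 8, 6, 6, 4 and 7 had a UMI in members. Ccdc153 and Tmem212, which mark ciliated ependymal cells, had none at days 1, 3 and 7. In the other direction, Ttr was found outside the members at 481, 403, 23.2 and 756 CPM at days 1 to 14. With each barcode thinned to 500 UMIs, 12.5%, 5.78%, 0.948% and 8.04% of the other barcodes had a Ttr UMI, and 0% did in sham.

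Levels were compared only between libraries with at least 20 members and 50000 member UMIs, which left days 1, 3 and 14. Sham could not serve as the reference, so day 1, the earliest injured library, did, and day 7 values stand beside the others without a comparison. The members summed to 182366 UMIs at day 1, 459904 at day 3 and 1490218 at day 14, so 1 UMI was worth 5.48, 2.17 and 0.671 CPM. A gene was measured when at least 10 UMIs were expected in the shallower library, and a ratio of at least 2-fold was counted. Of 2143 genes measured at day 3 against day 1, 96 were at least 2-fold higher (4.48%) and 194 at least 2-fold lower (9.05%). Of 2153 measured at day 14 against day 1, 147 were higher (6.83%) and 296 lower (13.7%). The median log2 ratio of all measured genes was -0.06 at day 3 and -0.05 at day 14. Both comparisons share the day 1 library. The split leans on the scaling: with edgeR's TMM factors all log2 ratios shift by 0.31 at day 3 and 0.44 at day 14, and the counts become 288 higher and 129 lower, and 492 higher and 174 lower. No gene named below at 2-fold or more changed its direction under TMM or with Ttr left out of the total.

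Interferon-inducible genes stood higher at day 1 than at days 3 and 14, and of the functional lists with at least 5 measured genes, cell type markers apart, theirs had the lowest median in both comparisons. These genes are switched on by interferons through a complex of transcription factors that binds a short promoter element. Promoter stretches from the RefSeq table of GRCm38.p6 promoters are shown for 4 of the 6 genes described next that had large differences. Gbp3 also holds matches but is not printed, since its stretch reaches into the annotated first exon. Capitals mark matches to GAAA followed by any 2 bases and a second GAAA, the core letters of that element, on either strand within 250 bases before the start. Each stretch is written 5′ to 3′ on the strand of the gene.
Ifit1, chr19:34640770-34640828, plus strand: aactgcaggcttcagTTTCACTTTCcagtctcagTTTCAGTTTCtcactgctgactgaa
Ifit3, chr19:34583358-34583431, plus strand: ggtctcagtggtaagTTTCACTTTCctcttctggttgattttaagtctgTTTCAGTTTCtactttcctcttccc
Isg15, chr4:156200860-156200911, minus strand: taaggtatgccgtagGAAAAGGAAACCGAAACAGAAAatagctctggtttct
Tgtp1, chr11:48992299-48992338, minus strand: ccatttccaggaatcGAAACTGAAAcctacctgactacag
The Ifit1 and Ifit3 stretches hold 2 matches each on the opposite strand, the Isg15 stretch holds 3 that overlap, and the Tgtp1 stretch holds 1. The Tgtp1 stretch lies in an intron of longer annotated Tgtp1 transcripts. Of all 27025 genes in the table, 936 had such a match (3.46%), as did 9 of the 17 interferon-list genes found there (52.9%). A match is a description of the letters and not evidence of binding. Usp18 was not in the table.

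Ifit1, an inhibitor of viral RNA translation at chr19:34640871-34650009, stood at 175, 47.8, 16.1 and 12.7 CPM in members at days 1, 3, 7 and 14. Its UMIs came from 23 of the 76 members at day 1 and from 13 of the 142 at day 14. Day 1 stood above the other 3 libraries, with intervals of 120 to 248 CPM at day 1 and 30.0 to 72.4 CPM at day 3. The log2 ratio was -1.88 (-2.73 to -1.05) at day 3 and -3.78 (-4.68 to -2.92) at day 14, which is 13.8-fold lower. In other barcodes Ifit1 was 45.0, 38.9, 78.7 and 66.3 CPM, so day 1 was not the highest there. Ependymal-type barcodes, which carry at least 3 markers of the ciliated cells that line the ventricles, numbered 64, 34, 71 and 77 at days 1, 3, 7 and 14. They had Ifit1 at 680, 20.3, 69.9 and 79.6 CPM. In them the 8 ependymal markers summed to 7270, 2117, 723 and 3716 CPM and the 8 astrocyte markers to 4418, 11464, 21453 and 12144 CPM. The make-up of this group thus differed between days. Its part in the ependymal-type values given here and below was not tested.

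Ifit3, the partner of Ifit1 at chr19:34583531-34588731, stood at 110, 43.5, 48.3 and 3.36 CPM in members. It was 2.52-fold lower at day 3 and 32.7-fold lower at day 14, with a log2 ratio of -5.03 (-6.80 to -3.57). Isg15, a ubiquitin-like modifier at chr4:156199424-156200818, stood at 197, 65.2, 64.4 and 10.1 CPM, a log2 ratio of -1.60 (-2.35 to -0.86) at day 3 and -4.29 (-5.27 to -3.39) at day 14. In other barcodes Isg15 was 66.0, 63.4, 127 and 195 CPM, highest at day 14. Usp18, the protease that removes ISG15 and damps interferon signalling, at chr6:121245906-121270917, stood at 115, 26.1, 16.1 and 13.4 CPM. Gbp3, a guanylate-binding GTPase at chr3:142560026-142573209, stood at 132, 32.6, 32.2 and 8.72 CPM. Tgtp1, a GTPase of the immunity-related family at chr11:48985327-48994172, was named by the size of its difference and was no member of the list. Tgtp1 stood at 110, 15.2, 0 and 5.37 CPM in members against 0.148 to 1.56 CPM in other barcodes. Its log2 ratio was -2.85 (-4.33 to -1.55) at day 3 and -4.35 (-5.74 to -3.11) at day 14. No single member gave more than 19% of the day 1 UMIs of these genes. Ifit3 and Tgtp1 have near-identical neighbouring copies in the mouse genome, so how their reads were shared out makes their levels uncertain.

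Other genes of the list were abundant enough to be counted closely. Ifitm3, a membrane protein that blocks viral entry, stood at 1799, 631, 628 and 370 CPM in members, a log2 ratio of -1.51 (-1.75 to -1.28) at day 3 and -2.28 (-2.48 to -2.08) at day 14. In other barcodes Ifitm3 was 435, 559, 462 and 809 CPM, and in ependymal-type barcodes 4665, 2202, 703 and 1320 CPM. Bst2, the virus-tethering protein tetherin, was 658, 365, 209 and 297 CPM. Irgm1, a further immunity-related GTPase outside the list, was 143, 21.7, 32.2 and 21.5 CPM. Not all genes of the list were lower: Ifi27 was 883, 896, 644 and 1348 CPM and Ifitm2 was 159, 185, 161 and 213 CPM, so both were highest at day 14.

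**Figure D3:**
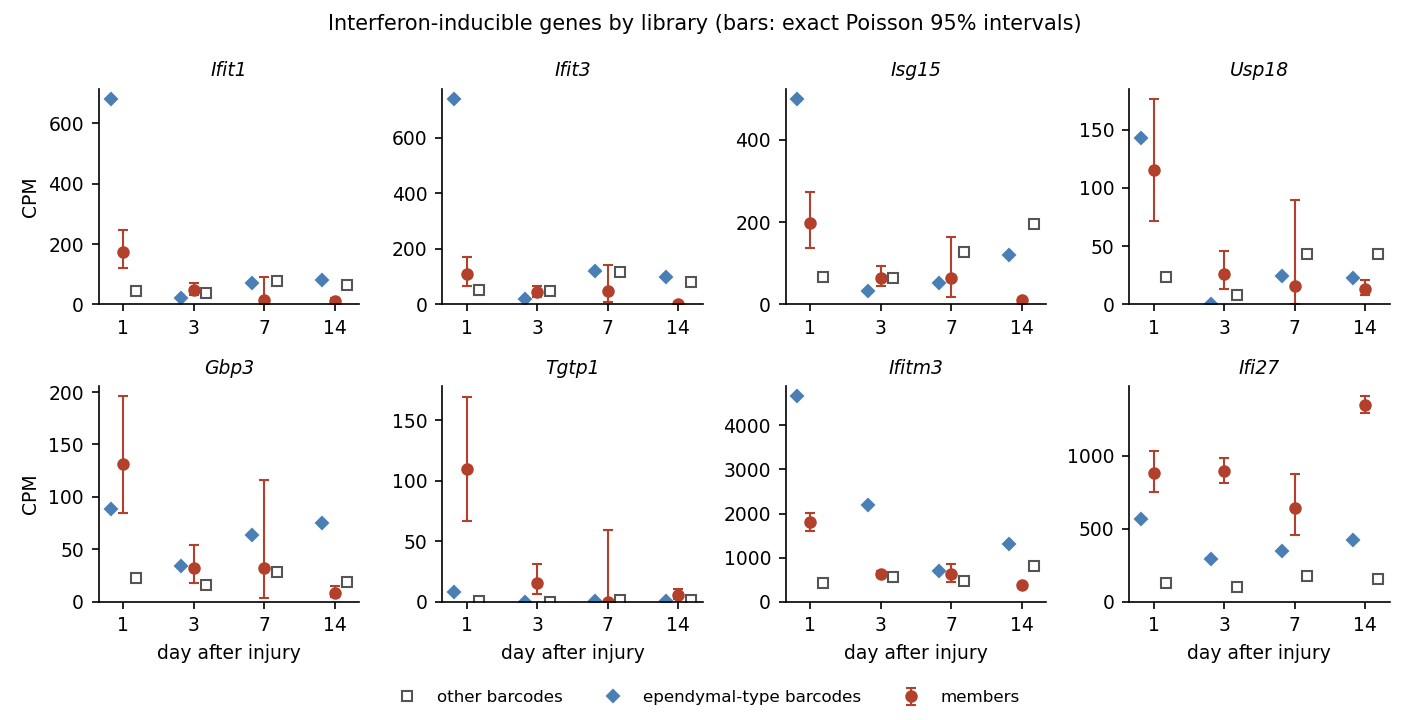
Levels of 8 interferon-inducible genes in CPM (vertical axes start at 0) by day after injury, in members (filled circles with exact Poisson 95% intervals), other kept barcodes (open squares) and ependymal-type barcodes (diamonds). Members are highest at day 1 for 7 of the genes, and Ifi27 is the exception with 1348 CPM at day 14.

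Of the 20 interferon-list genes, 9 were measured. The shares of all genes at least 2-fold lower were 9.05% at day 3 and 13.7% at day 14. At day 3, 6 were at least 2-fold lower (Ifit1, Ifit3, Ifitm3, Isg15, Gbp3 and Usp18) and 0 higher, with a median log2 ratio of -1.51 beside -0.06 for all measured genes. At day 14, 7 were lower, Bst2 being the further one, and 0 higher, with a median of -3.10 beside -0.05. Bst2 fell short of 2-fold under TMM, at -0.70. With 20 UMIs expected, 4 genes of the list were left at day 14 and their median was -0.36. The same list had a median of -0.14 and 0.81 in other barcodes, and of -2.94 and -1.82 in ependymal-type barcodes. The 6 genes remained at least 2-fold lower in each of the 7 alternatives that leave the choice of measured genes as it is, at both times. Genes below the measuring limit included Stat2, which transmits the interferon signal, at 98.7, 10.9, 16.1 and 8.05 CPM. Per cell, at a common depth of 500 UMIs, members held a mean of 2.63, 1.09, 1.00 and 1.33 UMIs of the list at days 1, 3, 7 and 14. At least 3 such UMIs were found in 37 of 76 members at day 1 (48.7%), 21 of 160 at day 3 (13.1%), 1 of 10 at day 7 and 20 of 142 at day 14 (14.1%). The difference between cell classes was not tested.

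Antigen presentation genes had smaller differences in part. H2-K1, a classical MHC class I heavy chain, was 192, 235, 177 and 303 CPM in members, and its light chain B2m was 806, 683, 660 and 560 CPM. In other barcodes H2-K1 was 346 CPM at day 1 and 1844 CPM at day 14. H2-K1 shares near-identical stretches with H2-D1, so its level is uncertain. The class I list had a median log2 ratio of -0.22 at day 3, with H2-T23 the 1 gene of 6 measured that was 2-fold lower, and of -0.52 at day 14, with H2-T23 and Tapbp lower of 5, both of which remained so in each of the 7 alternatives. The day 3 call of H2-T23 was lost under TMM, at -0.85. Beside these calls, 9.05% of all genes were lower at day 3 and 13.7% at day 14. Tapbp encodes tapasin, which loads peptides. Class II RNA in members was almost absent until day 14, when Cd74 reached 213 CPM, of which 60.6% lay in 1 member. The 6 class II genes summed to 5.48, 28.3, 32.2 and 469 CPM in members at days 1, 3, 7 and 14. In other barcodes they summed to 138, 1189, 623 and 5930 CPM, also highest at day 14. The immunoglobulin gene Ighg2b was at 0 UMIs at days 1, 3 and 7 and at 111 CPM in 91 members at day 14, when other barcodes had 2837 CPM.

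Chemokine RNA in members rested on single barcodes. Ccl5 had no UMI at day 1 and 215 CPM at day 3, where 91.9% came from 1 member, and 276 CPM at day 14, where 58.2% did. The Ccl5 ratio at day 14 changed sign without the called doublets. Of 5 measured genes of the list at day 3, Ccl5 and Cxcl2 were higher, beside 4.48% of all genes. Of 3 at day 14 Ccl5 and Spp1 were higher and Vcam1 lower, beside 6.83% higher and 13.7% lower among all genes. Cxcl2 at day 3 (167 CPM) and Ccl2 at day 3 (126 CPM) had 84.4% and 84.5% of their UMIs in 1 member. Vcam1, a leukocyte adhesion molecule of the apical face of this epithelium, was spread over 41 of 76 members at day 1. Vcam1 stood at 439, 298, 96.6 and 139 CPM, a log2 ratio of -0.56 (-0.97 to -0.14) at day 3 and -1.66 (-2.04 to -1.27) at day 14. In other barcodes Vcam1 was 88.5, 89.8, 54.6 and 23 CPM, and in ependymal-type barcodes 120, 203, 201 and 303 CPM. Icam1 was 60.3, 67.4, 113 and 12.1 CPM. Cx3cl1 and Madcam1, other adhesion ligands, were at most 32.9 CPM (Cx3cl1) and 16.5 CPM (Madcam1) in the injured libraries.

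**Figure D4:**
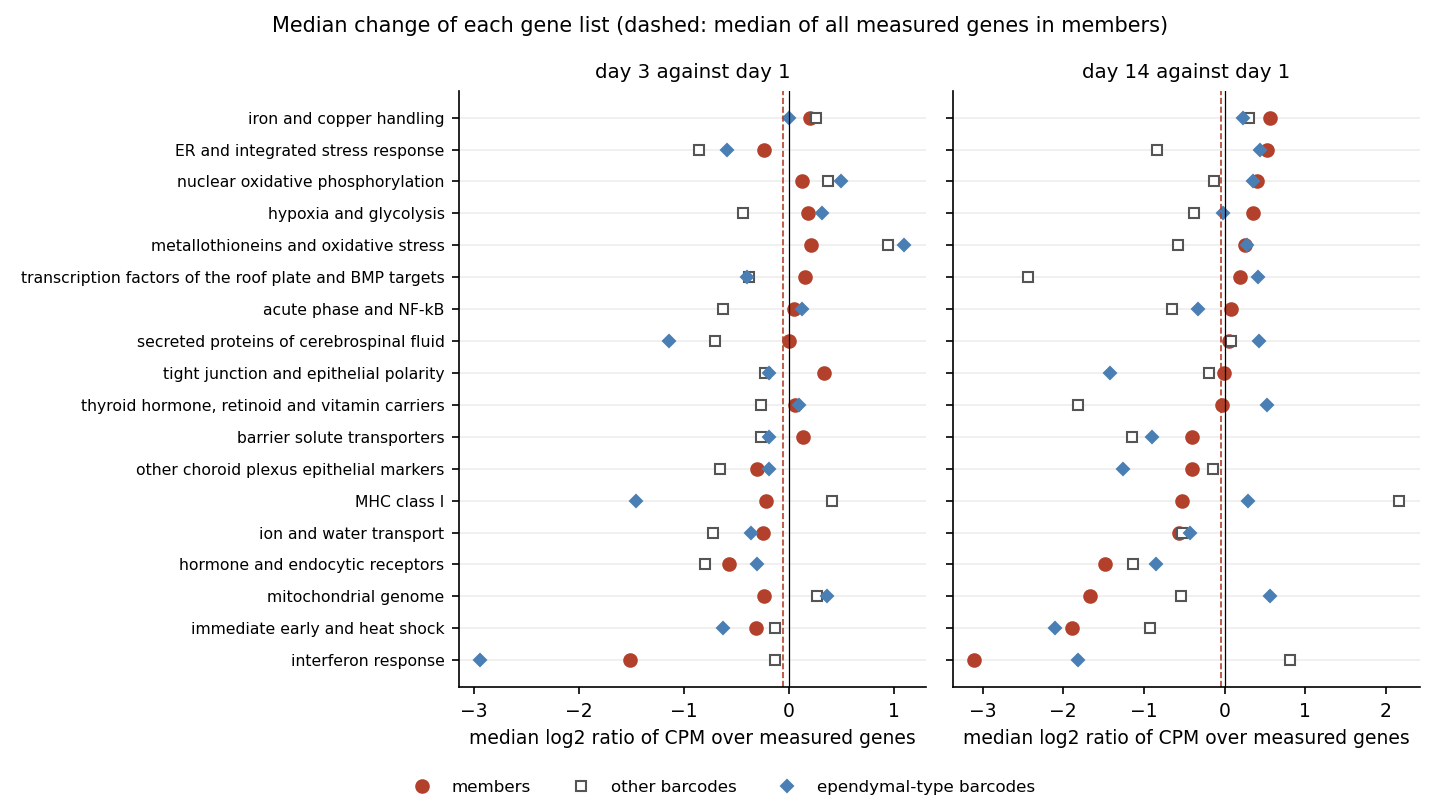
Median log2 ratio of CPM over the measured genes of each list (horizontal axes), at day 3 and at day 14 against day 1, in members (circles), other kept barcodes (squares) and ependymal-type barcodes (diamonds); the dashed line is the median of all measured genes in members. Lists with at least 5 measured genes in both comparisons are drawn, and among them the interferon list has the lowest median in members, -1.51 at day 3 and -3.10 at day 14.

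Of the ion and water transport genes that make the fluid, 20 were measured at day 3 and 21 at day 14. At day 3 Aqp4, an astrocyte gene, and Kcne2, a gene of the rule, were at least 2-fold lower, and no other gene was, beside 9.05% lower among all genes. This day 3 call of Aqp4 did not remain in each of the 7 alternatives. At day 14, 5 were lower (Atp1b2, Slc12a4, Slc4a10, Aqp4 and Car12), beside 13.7% among all genes. Slc12a4 and Slc4a10 did not stay past 2-fold in each of the 7 alternatives, with log2 ratios of -0.69 and -0.74 under TMM, and Atp1b2 and Aqp4 were also lower in other barcodes. None was 2-fold higher at either time, beside 4.48% and 6.83% of all genes, and the list medians were -0.24 and -0.56. Car12, a membrane carbonic anhydrase at chr9:66713686-66766845, stood at 373, 204, 96.6 and 118 CPM, a log2 ratio of -0.87 (-1.33 to -0.40) at day 3 and -1.66 (-2.07 to -1.23) at day 14. Slc4a10, the sodium bicarbonate transporter of the basolateral face, stood at 340, 198, 129 and 150 CPM. Slc12a2, the sodium-potassium-chloride cotransporter NKCC1, stood at 609, 672, 322 and 319 CPM, so days 1 and 3 did not differ beyond counting error while day 14 was 1.91-fold lower. Slc4a5, a bicarbonate cotransporter of the apical face, stood at 214, 296, 80.5 and 122 CPM. Aqp1, the water channel of the apical face, was 115, 137, 16.1 and 69.1 CPM, with ratios whose intervals include no difference.

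Subunits of the sodium pump differed from one another. Its subunit Atp1b1 was 757, 700, 451 and 790 CPM and its regulator Fxyd1 1354, 1850, 2784 and 1902 CPM. Atp1b2, the subunit that astrocytes also express, was 285, 220, 338 and 47.6 CPM, which is 5.98-fold lower at day 14. Other barcodes had Atp1b2 at 826, 480, 213 and 32.9 CPM, so it moved with the astrocyte RNA given above. Aqp4, an astrocyte water channel, likewise stood at 214, 37, 274 and 4.70 CPM in members and 444, 203, 177 and 31.1 CPM in others. The part of such RNA in these ratios was not tested. Kcnj13, a potassium channel of the apical face, was 345, 220, 241 and 470 CPM.

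Carriers for hormones and solutes differed by gene. Slco1c1, a thyroid hormone importer at chr6:141524368-141570177, stood at 515, 233, 193 and 235 CPM, 2.22-fold lower at day 3 and 2.19-fold lower at day 14. Under TMM both fell short of 2-fold, with log2 ratios of -0.84 and -0.69. Slc29a4, a monoamine transporter at chr5:142692512-142722490, ran the other way at 32.9, 117, 16.1 and 96.6 CPM. Its log2 ratio was 1.84 (0.62 to 3.34) at day 3 and 1.55 (0.40 to 3.02) at day 14. Slc3a2, the heavy chain of amino acid exchangers, was 247, 213, 177 and 72.5 CPM. Slc2a1, the glucose transporter, was 104, 73.9, 48.3 and 39.6 CPM, and in other barcodes 202, 47.3, 96.2 and 37 CPM. Of the 14 carriers of thyroid hormone, retinoids and vitamins, which include the rule gene Ttr, 6 were measured in each comparison. Slco1c1 was the 1 of this list that was 2-fold lower, beside 9.05% of all genes at day 3 and 13.7% at day 14. Lrp2, Cubn, Rbp4 and Kcnq1, which belong to this and related lists, had at most 1 UMI in members.

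Junction and cytoskeleton genes of the barrier were few and low. Cldn2, the claudin that makes this epithelium leaky to cations, was 132, 60.9, 64.4 and 71.8 CPM. Cldn1, a sealing claudin, was 60.3, 172, 16.1 and 32.2 CPM, a log2 ratio of 1.51 (0.59 to 2.57) at day 3. The 2 claudins thus lay on opposite sides at day 3. Krt8 and Krt18, which pair into the keratin filaments of simple epithelia, were 49.4, 144, 64.4 and 107 CPM and 170, 326, 193 and 223 CPM. Krt8 was 2.91-fold higher at day 3 and 2.16-fold higher at day 14. The day 3 call remained in each of the 7 alternatives and the day 14 call did not. Cldn11 was 209 CPM at day 14 in 31 members, beside the oligodendrocyte RNA given above, and Cdh1 had no UMI in members of the injured libraries. Of 19 list genes, 7 were measured at day 3 and 6 at day 14, and the median changed sign with the settings.

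As a list, secreted products had medians near those of all measured genes at days 3 and 14. Of the 26 genes of the cerebrospinal fluid list, 19 were measured at day 3 and 18 at day 14, with a median at 0 to the second decimal at day 3 and of 0.06 at day 14. The list holds Ttr, a gene of the rule. At day 3 Vegfa was 2-fold lower, beside 9.05% lower and 4.48% higher among all genes. At day 14 Apod and Sostdc1 were higher and Vegfa lower, beside 6.83% higher and 13.7% lower among all genes. Sostdc1, a secreted antagonist of BMP and Wnt at chr12:36314139-36318452, stood at 367, 237, 32.2 and 1023 CPM. Day 14 was well above the rest, with a log2 ratio of 1.48 (1.12 to 1.85), and 134 of 142 members had a UMI. Vegfa, the vascular growth factor that keeps these capillaries fenestrated, was 98.7, 23.9, 48.3 and 33.6 CPM, 4.13-fold lower at day 3. In other barcodes Vegfa was also highest at day 1, at 266 against 36.7, 28.1 and 10.4 CPM. Apod, an apolipoprotein also made by oligodendrocytes, reached 1290 CPM at day 14, of which 46.8% lay in 1 member. Its call did not remain in each of the 7 alternatives. Igf2 was 43.9, 39.1, 16.1 and 10.7 CPM and its binding protein Igfbp2 was 1387, 1081, 724 and 1621 CPM. Ptgds, the prostaglandin D synthase, was 2166, 2903, 789 and 2627 CPM.

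Of 24 choroid plexus markers outside the rule, 23 were measured at day 3 with 3 lower (Cldn2, Tmem72 and Msx1) and 0 higher, beside 9.05% lower and 4.48% higher among all genes. None of the 3 stayed past 2-fold in each of the 7 alternatives. At day 14, 22 were measured, with Sostdc1 higher and Car12, Col8a1 and Trpm3 lower, and of these Sostdc1 and Car12 remained so in each. The shares of all genes at day 14 were 6.83% higher and 13.7% lower. Trpm3, a cation channel whose gene hosts a microRNA, was 1036, 905, 1014 and 484 CPM. The hormone receptors Prlr, for prolactin, and Htr2c, for serotonin, were 609, 470, 96.6 and 557 CPM and 274, 211, 354 and 224 CPM, without a 2-fold difference. Of the receptor list at day 14, Igf1r (137, 82.6, 32.2 and 26.2 CPM), Fgfr1 (110, 67.4, 113 and 20.1 CPM) and Lrp1 (208, 148, 241 and 74.5 CPM) were at least 2-fold lower of 5 measured. All 3 were lower at day 14 in other barcodes too, with log2 ratios of -1.34, -4.5 and -1.13 for Igf1r, Fgfr1 and Lrp1. In members Lrp1 did not stay past 2-fold in each of the 7 alternatives.

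Immediate early genes, which are switched on within minutes by stress and also by dissociation, were lower at day 14. Fos stood at 302, 202, 64.4 and 74.5 CPM, Egr1 at 225, 91.3, 274 and 26.8 CPM and Junb at 175, 141, 177 and 40.9 CPM. At day 14, 8 of 10 measured genes of the list were at least 2-fold lower (Fos, Jun, Junb, Egr1, Ier3, Dusp1, Klf6 and Hspb1), with a median log2 ratio of -1.89. At day 3, 3 of 11 were lower (Egr1, Klf6 and Hspb1), with a median of -0.31. Jun and Hspb1 at day 14, and Egr1 and Hspb1 at day 3, did not stay past 2-fold in each of the 7 alternatives. The shares of all genes that were lower were 13.7% at day 14 and 9.05% at day 3. The same list had medians of -0.92 in other barcodes and -2.10 in ependymal-type barcodes at day 14. Hsp90aa1, a chaperone, was not lower, at 603, 491, 869 and 1062 CPM, and with it included the list's mean per member at 500 UMIs was 0.908, 0.988, 1.30 and 1.00 at days 1, 3, 7 and 14. Hspb1, a small heat shock protein, had 48.1% of its day 1 UMIs in 1 member, and its ratio changed sign when members with 1% or more of UMIs in markers of other cell types were left out.

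Transcripts of the mitochondrial genome were lower at day 14 while nuclear genes of the same complexes were not. mt-Nd1, of complex I, stood at 4705, 3981, 6068 and 2212 CPM. mt-Co1, of cytochrome oxidase, stood at 1711, 1646, 4442 and 581 CPM, a log2 ratio at day 14 of -1.56 (-1.75 to -1.37). mt-Atp8, of ATP synthase, stood at 389, 581, 1336 and 51.7 CPM, and other barcodes had mt-Atp8 at 231, 477, 674 and 57.8 CPM. Day 14 was the lowest of the 4 injured libraries for all 3 genes in members and day 7 the highest. At day 14, 8 of 10 measured mitochondrial genes were at least 2-fold lower and 0 higher, with a median of -1.67, beside 13.7% lower among all genes. At day 3, 0 of 11 passed 2-fold in either direction, with a median of -0.24, beside 4.48% higher and 9.05% lower among all genes. Of the 8, mt-Nd3, mt-Nd5, mt-Nd6, mt-Co1, mt-Atp6 and mt-Atp8 remained so in each of the 7 alternatives. The medians of the list at day 14 were -0.54 in other barcodes and 0.56 in ependymal-type barcodes. At 500 UMIs per member, the mean was 12.2, 11.2, 19.6 and 6.90 mitochondrial UMIs at days 1, 3, 7 and 14.

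The nuclear genes gave other values. Atp5g1, a ring subunit of ATP synthase, was 1157, 1268, 1561 and 2151 CPM, and Cox4i1, of cytochrome oxidase, was 2034, 2405, 2044 and 2790 CPM. Cox5a was the 1 gene of 16 measured that passed 2-fold at day 14, at 285, 365, 354 and 586 CPM, though not in each of the 7 alternatives. Among all genes, 6.83% were higher and 13.7% lower at day 14. The list medians were 0.13 and 0.40. The mitochondrial share of UMIs is also read as a sign of cell quality, and its median over the other kept barcodes was 0.973% at day 14 and 1.17% at day 1. Its part in these ratios was not tested.

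**Figure D5:**
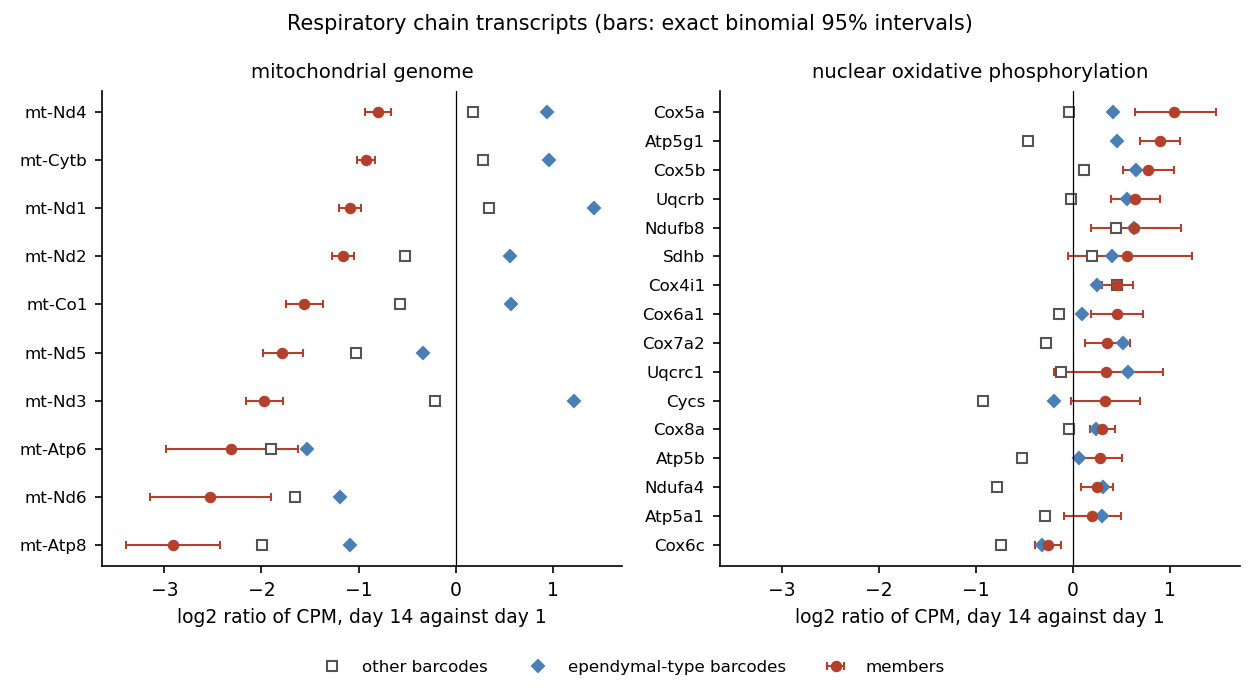
Log2 ratio of CPM at day 14 against day 1 (horizontal axes) for measured genes of the mitochondrial genome (left) and nuclear genes of oxidative phosphorylation (right), in members (circles with exact binomial 95% intervals), other barcodes (squares) and ependymal-type barcodes (diamonds). The mitochondrial genes of members all lie left of 0, down to -2.91 for mt-Atp8, and the nuclear genes lie between -0.26 for Cox6c and 1.04 for Cox5a.

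Metallothioneins and antioxidant enzymes differed from one another. Mt1, a zinc-binding metallothionein, stood at 3109, 3596, 1416 and 372 CPM in members, a log2 ratio of -3.06 (-3.24 to -2.89) at day 14. Mt2, its neighbour on chromosome 8, stood at 921, 704, 241 and 24.2 CPM, 38.1-fold lower at day 14. Other barcodes held Mt1 at 8210, 15859, 2917 and 772 CPM, also lowest at day 14, while ependymal-type barcodes held 8959, 54799, 15536 and 15776 CPM. Mt3, the brain form, was steadier at 2336, 3368, 2012 and 2777 CPM. Gpx3, the secreted glutathione peroxidase at chr11:54902453-54910377, was 32.9, 222, 1819 and 280 CPM. Gpx3 was thus lowest at day 1, by 6.74-fold against day 3 and 8.51-fold against day 14, with 38.2% of the day 3 UMIs in 1 member. Gpx4, which protects membranes from lipid peroxidation, was 850, 1194, 531 and 1493 CPM. Prdx6 was 159, 335, 193 and 167 CPM. Of the 13 genes measured in each comparison, Prdx6 and Gpx3 were higher at day 3, beside 4.48% of all genes. At day 14 Gpx3 and Gpx8 were higher and Mt1 and Mt2 lower, beside 6.83% higher and 13.7% lower among all genes. Prdx6 and Gpx8 did not stay past 2-fold in each of the 7 alternatives.

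Steap1, a metalloreductase relative at chr5:5736317-5749326, stood at 54.8, 235, 64.4 and 217 CPM in members against 0.305 to 3.32 CPM in other barcodes. Its log2 ratio was 2.10 (1.16 to 3.2) at day 3 and 1.99 (1.09 to 3.06) at day 14, and its UMIs were spread over 63 and 101 members. Gsta4, a glutathione transferase for lipid aldehydes, stood at 82.3, 233, 113 and 340 CPM, 2.83-fold higher at day 3 and 4.14-fold higher at day 14. Lcn2, the siderophore-binding lipocalin of the acute phase, was 76.8, 207, 1191 and 303 CPM, carried by 8, 26, 8 and 20 members. Its ratio was 2.69-fold at day 3 and 3.95-fold at day 14, and ependymal-type barcodes held 50.2, 61.0, 99.8 and 826 CPM. Giving each member equal weight, the Lcn2 log2 ratio at day 3 was 0.55, below 2-fold. The ferritin chains Fth1 and Ftl1 were 3663, 4207, 4072 and 4713 CPM and 477, 765, 1223 and 925 CPM. Hamp, the iron hormone hepcidin, had no UMI in members of these libraries. The acute phase genes Saa1, Saa2 and Orm1 had none either, and Saa3 reached 81.2 CPM at day 14 alone. Of the acute phase and NF-kB list of 28, 5 were measured. Lcn2 was higher and Serpina3n lower at day 3, beside 4.48% higher and 9.05% lower among all genes. Lcn2 and C4b were higher and Serpina3n and Nfkbia lower at day 14, beside 6.83% and 13.7%. At day 14 C4b and Serpina3n did not stay past 2-fold in each of the 7 alternatives. Without members holding 1% or more of their UMIs in markers of other cell types, the Serpina3n log2 ratio changed sign, to 2.02 at day 3 and 1.06 at day 14.

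Single glycolytic enzymes and chaperones of the endoplasmic reticulum were higher at day 14. Eno1, the enolase, stood at 225, 402, 483 and 660 CPM, 2.93-fold higher at day 14, and Ldhb, a lactate dehydrogenase chain, at 592, 828, 1062 and 1435 CPM, 2.42-fold higher. Gapdh was 883, 978, 933 and 1759 CPM. Of 13 measured genes of that list at day 14, Ldhb and Eno1 were higher and Vegfa and Slc2a1 lower, with a median of 0.35, beside 6.83% higher and 13.7% lower among all genes. Slc2a1 did not stay past 2-fold in each of the 7 alternatives. Manf, a secreted neurotrophic chaperone, stood at 186, 152, 96.6 and 422 CPM, a log2 ratio of 1.18 (0.68 to 1.72) at day 14. Sdf2l1, of the same compartment, was 32.9, 28.3, 64.4 and 114 CPM. Atf4, the factor of the integrated stress response, lay on the other side at 159, 152, 193 and 49.7 CPM. Of 8 measured genes, Sdf2l1 and Manf were thus higher and Atf4 lower, with a median of 0.53. Dnajb11, a further chaperone of that compartment, was 21.9, 32.6, 32.2 and 93.9 CPM.

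Among factors of the roof plate and targets of BMP, Id3, an inhibitor of helix-loop-helix factors, stood at 192, 641, 96.6 and 312 CPM. Its log2 ratio was 1.74 (1.23 to 2.29) at day 3 and 0.70 (0.20 to 1.24) at day 14, and day 3 was highest. Msx1, a homeobox gene of this epithelium, was 274, 133, 209 and 312 CPM, lowest at day 3. Of 7 measured, Id3 was higher and Msx1 lower at day 3, beside 4.48% higher and 9.05% lower among all genes. Id2 was lower at day 14, beside 13.7% among all genes. Of these 3 calls, Id3 alone remained so in each of the 7 alternatives. Hox genes of the hindbrain, which mark the plexus of the fourth ventricle, had no UMI in members of the injured libraries: Hoxa2, Hoxb2, Hoxa3, Hoxb3 and Hoxd3 were all at 0. Among forebrain genes, Otx1 was 16.5, 15.2, 0 and 12.7 CPM and Emx1 was 5.48, 8.70, 0 and 4.70 CPM. At day 14 these came from 18 and 7 members. Cilium genes were present at low levels, and Cfap126 was 54.8, 69.6, 96.6 and 140 CPM, 2.55-fold higher at day 14.

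RNA of cell division genes was low. The 13 genes of that list summed to 280, 357, 145 and 105 CPM at days 1, 3, 7 and 14, with a UMI for 9, 9, 4 and 9 of them, and to 784, 1025, 323 and 354 CPM in other barcodes. Mki67, a marker of cycling cells, had 1 UMI at day 3 and none in the other injured libraries. Top2a, a topoisomerase of dividing cells, was 49.4, 0, 16.1 and 0.671 CPM, in 1 member at each of days 1, 7 and 14. Pcna, a clamp of DNA replication and repair, was 71.3, 63.1, 96.6 and 49.7 CPM, in 9, 22, 4 and 56 members. Cdkn1a, a cell cycle inhibitor, was 98.7, 259, 16.1 and 31.5 CPM. It was 2.62-fold higher at day 3 and 3.13-fold lower at day 14, while in other barcodes it was 318, 254, 101 and 76.5 CPM.

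The genes of the study's title were low. Alkbh5 was 104, 93.5, 32.2 and 99.3 CPM in members and 110, 93.3, 61.1 and 70.5 CPM in other barcodes. Its log2 ratios of -0.16 (-0.97 to 0.71) at day 3 and -0.07 (-0.76 to 0.70) at day 14 include no difference. Socs3 was 115, 67.4, 0 and 9.39 CPM, with a log2 ratio of -3.62 (-4.70 to -2.57) at day 14. Socs3 was also lower at day 14 in other barcodes, at 308 against 107 CPM. Stat3, which drives Socs3, was 104, 56.5, 145 and 21.5 CPM. Of that list, 4 genes were measured at day 3 with 0 past 2-fold, beside 4.48% higher and 9.05% lower among all genes. At day 14, 3 were measured, of which Socs3 and Stat3 were lower, beside 13.7% of all genes.

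Some of the largest ratios were shared with the rest of the library. Las1l, F3 and Spry2 were among the 10 lowest at day 14, at 494 against 34.9, 208 against 10.7 and 132 against 13.4 CPM. In other barcodes Las1l was 657 and 27.9, F3 564 and 7.24, and Spry2 302 and 11.4 CPM. Gm10076, an unnamed gene model, was 219 and 1244 CPM at days 1 and 3 in members and 141 and 1799 CPM in others. In contrast, Gm32468, another gene model, was 21.9, 130, 16.1 and 42.9 CPM in members and at most 0.271 CPM in other barcodes. Emc4, of the membrane protein insertion complex, was 21.9, 102, 32.2 and 95.3 CPM and stayed between 49.4 and 60.3 CPM elsewhere. Both Gm32468 and Emc4 were named by the size of their ratios and had 4 UMIs each at day 1. Their log2 ratios at day 3 were 2.57 (1.14 to 4.49) and 2.22 (0.77 to 4.15). Maf, a transcription factor, was 154, 37, 80.5 and 75.2 CPM, and Ago2, of RNA silencing, was 110, 19.6, 32.2 and 26.8 CPM.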

How the data were processed

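Cells were counted by the authors with Cell Ranger 4.0.0, per the file headers, on GRCm38 (mm10), per the submitters' processing notes, which also name Seurat 3.2.0. The deposited values are raw UMI counts per gene and barcode, 1 filtered matrix for each of the 5 groups. The barcodes deposited (9895 to 14159 per library) and the cells the labels give as loaded (5188 to 11934) differ, and 3 libraries hold more barcodes than the highest stated number. No source names a removal of background RNA.

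Counts were summed over members per library and divided by their total (CPM). Log2 ratios have exact conditional binomial intervals, levels exact Poisson intervals and shares Clopper-Pearson intervals, all at 95%. A gene without a UMI in a library was set at a floor of 3 UMIs for a ratio. No test between groups was made, with 1 library each. Named genes were the fixed lists and markers, the 10 highest and 10 lowest ratios per comparison among genes at least as high in members as in other barcodes in 1 of the libraries, and the 25 most enriched genes. The members and lists were chosen with earlier results of these data known. Scrublet called doublets at rates of 9.28% (sham), 7.32% (day 1), 4.43% (day 3), 0% (day 7) and 3.31% (day 14), so it had not worked at day 7. A few genes are not reported here. Called doublets (0, 1, 2, 0 and 7 members) were kept. Ratios and intervals were tested on simulated data. Python 3.11.15, numpy 2.4.6, scipy 1.17.1, pandas 2.3.3, scanpy 1.11.5, R 4.3.3 and edgeR 4.0.16 (TMM factors only) were used.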

Additional observations from a re-analysis of the deposited data

Results flagged for a closer look

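The 10 members of day 7 entered no comparison. In them, 4 genes were picked for levels far above the other barcodes of that library and the members of other injured libraries. Since the genes were chosen by these levels, the contrasts below are a description without a test. C3, the central complement protein, was at 402 CPM (260 to 594) in 6 of 10 members, against 10.0 CPM in other barcodes. Gpx3 was at 1819 CPM (1499 to 2187) in 7 members, against 34.3 CPM. Lcn2 was at 1191 CPM (935 to 1495) in 8 members, against 9.15 CPM. Serpina3n, an acute phase protease inhibitor, was at 982 CPM (751 to 1261) in 5 members, against 124 CPM. Single members held 40%, 30.1%, 37.8% and 78.7% of the UMIs of C3, Gpx3, Lcn2 and Serpina3n. The difference between these members and those of other days was not tested.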

How the results depend on the processing

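No paired analysis was possible because each group has 1 library. Counting intervals do not cover differences between mice, and 1 UMI is worth 5.48 CPM at day 1, which limits every ratio to genes of middle and high level.

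With at least 2 of the other markers required, the shares were 0% in sham, 0.457% at day 1 and 1.34% at day 3, and with at least 1000 UMIs 0% in sham and 1.36% at day 3. Genes past 2-fold numbered 911 at day 3 (261 higher) and 1099 at day 14 (293 higher) with 5 UMIs expected, 80 (30 higher) and 148 (53 higher) with 20, and 666 at day 14 under TMM. With Ttr left out of the totals the splits were 139 higher and 166 lower at day 3 and 219 and 248 at day 14, shifts of 0.09 and 0.13. With members weighted equally they were 181 and 220, and 193 and 291.

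Median log2 ratios that moved were these. Tight junction: 1.24 at day 3 with members weighted equally, -0.33 with 5 and 0.94 with 20 UMIs expected, and 0.84 at day 14 under TMM. Acute phase: -1.23 at day 3 with 5 UMIs expected. At day 14 it was 1.47 under TMM, -0.63 with members weighted equally, -0.68 with Ttr at 5% or more, -0.63 with 1000 UMIs, -0.72 without called doublets and -1.40 with 5 UMIs expected. Chemokines at day 3: -0.56 with 20 UMIs expected, and 2.05 among members with under 1% of UMIs in markers of other cell types, a setting chosen after seeing the data. Interferon at day 14: -2.25 under TMM and -0.36 with 20 UMIs expected, when 4 genes were left. MHC class I at day 14: 0.066 with 20 UMIs expected. Hormone receptors at day 14: -0.89 under TMM, -0.83 with members weighted equally, -0.29 with 20 UMIs expected and -0.81 under the 1% setting. The cause was not tested.

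Ratios of 2-fold or more that changed sign did so under the 1% setting for Hspb1 (0.44 at day 3 and 0.51 at day 14), Serpina3n (2.02 and 1.06), Cldn11 (-0.94 at day 14), Mag (-1.30) and Mobp (-0.11). Without called doublets Ccl5 was -0.26 at day 14. Of all log2 ratios recomputed, 2675 stayed within their interval, 236 moved and 8 changed sign. The interferon, mitochondrial genome and immediate early lists had medians below that of all measured genes in each of the 10 settings at both times. So did the lists of ion and water transport, of other choroid plexus markers and of hormone receptors. At day 3 the gap was as small as -0.036 for the mitochondrial genome and -0.021 for ion and water transport.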
